A study of Rattus norvegicus with 12 samples.

Results

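Genes of the interferon response and of antigen presentation were followed in the medial prefrontal cortex (mPFC) of rats after chronic prefrontal activation (CPA). The set held 34 genes chosen by symbol, from the receptor for type I interferon to the light chain of MHC class I, and each symbol was found once among the 29009 genes of the deposited count table. The study activated excitatory neurons of the mPFC for 10 days through a designer receptor and then treated the rats for 7 days with RO6958375, a peptide agonist of the oxytocin receptor, or with vehicle. RNA from the mPFC of 12 adult male Sprague Dawley rats was sequenced, with 4 rats in each of 3 groups and 1 library per rat. In the CPA+RO group the rats carried AAV8 with hM3D(Gq)-mCherry under the mCaMKIIa promoter and received RO6958375 once daily by the subcutaneous route, at 0.07 mg/kg per the methods. In the CPA+veh group they carried the same virus and received vehicle. In the control+veh group the virus held the fluorophore without the designer receptor, and the rats received vehicle. Clozapine-N-oxide (CNO), the ligand of the designer receptor, was given in the drinking water at a calculated 2 mg/kg, and the methods set out no group without it. All 12 rats had thus been injected with an AAV, so no group showed the mPFC without a virus, and the tissue was taken from brain slices after electrophysiology. A subset of the study's rats also received a retrograde AAV reporter, and the rats were handled in 2 cohorts. Neither was mapped to the libraries, and their part in the values was not tested.

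Interferons are secreted when cells sense foreign or misplaced nucleic acid. Type I interferon binds the IFNAR1 and IFNAR2 receptor and activates a transcription factor complex that holds STAT2 and IRF9, which binds the interferon-stimulated response element (ISRE) and switches on antiviral genes and genes of the peptide-loading pathway for MHC class I. In the brain, microglia, endothelial cells, astrocytes and neurons can all mount this response, and adeno-associated virus itself carries single-stranded DNA.

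The ISRE was searched in promoters because it is the element through which most of these genes are known to be induced. RefSeq promoter windows of the rat build GRCr8, running from 250 bases before to 50 bases after the annotated start, were found for 25 of the 34 genes. The ISRE letters, 2 runs of GAAA with any 2 bases between and on either strand, occurred in 13 of the 25 windows (52.0%), against 3.92% of 33465 promoter windows of the same length. The GAS letters, TTC and GAA with any 3 bases between and on either strand, through which type II interferon acts, occurred in 6 of the 25 (24.0%), against 8.87% of all windows. Matches of both kinds shared bases in Bst2, and 2 overlapping ISRE matches lay in Oas1a and in Bst2. The 8 windows below, 30 bases each on the strand of the gene, come from a sensor kinase, a transcription factor, 3 effectors or modifiers and the 3 genes of antigen presentation, and capitals mark the ISRE letters, which read as runs of TTTC where the match was on the opposite strand.
Eif2ak2: agtccgccggGAAAACGAAAcagagagaac
Irf7: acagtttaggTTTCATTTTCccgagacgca
Ifit3: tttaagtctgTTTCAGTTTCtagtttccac
Rsad2: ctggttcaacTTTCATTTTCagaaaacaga
Parp14: tccaggaaatGAAAGTGAAAgaagtaagtt
Tap1: cggtggctgcTTTCGGTTTCttcttcctct
Tap2: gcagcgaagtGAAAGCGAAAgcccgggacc
B2m: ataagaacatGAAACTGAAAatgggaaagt

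In GRCr8 these stretches lay at chr6:21941128-21941157 on the plus strand for Eif2ak2, chr1:205800073-205800102 on the minus strand for Irf7, chr1:241527272-241527301 on the plus strand for Ifit3 and chr6:48788248-48788277 on the minus strand for Rsad2. Those of Parp14 and B2m lay on the plus strand at chr11:78408048-78408077 and chr3:129549170-129549199. Those of Tap1 and Tap2 lay on the minus strand at chr20:4668645-4668674 and chr20:4652318-4652347. The ISRE letters of Eif2ak2 ended 7 bases before its start, the closest of the 8, and those of B2m began 150 bases before its start, the farthest. The other 5 genes with the letters were Ifih1, Oas1a, Oasl2, Bst2 and Dtx3l. A match is a run of letters and not a measured site.

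The libraries held between 64993543 and 79006972 counts. Within groups, log2 CPM (counts scaled to the TMM-adjusted size of the library) correlated across genes with r between 0.986 and 0.990 over 18 pairs, and no 2 libraries were identical. Of the counts from 1 to 9, 92.7% were even, as when both mates of a read pair are counted. Chrm3, the rat gene for the muscarinic receptor from whose human form hM3Dq was built, was at 101 to 247 CPM in CPA+RO, 71.1 to 292 CPM in CPA+veh and 53.1 to 64.9 CPM in control+veh rats, so that both groups labelled with the designer receptor lay above the control group. CPA+veh 1 and 2 stood apart from the other 10 libraries in cell type markers. A microglial list of 15 genes summed to 451 and 453 CPM in them and to between 349 and 411 CPM elsewhere, an endothelial list of 13 genes to 163 and 167 CPM against 217 to 284 CPM, and an oligodendrocyte list of 10 genes to 5127 and 3591 CPM against 2625 to 3086 CPM. In bulk tissue, fewer cells of a type and less RNA per cell cannot be told apart. Where a comparison with CPA+veh is given for a single gene and leaving out these 2 rats turned its direction or moved it by over 1.5 times, the value without them stands beside it.

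The members covered a wide range of levels, from a mean of 0.0367 RPKM (reads scaled to gene length and library size) for Zbp1 to 113 RPKM for B2m. In all, 15 genes averaged under 1 RPKM, 15 between 1 and 10 RPKM, and 4, namely Stat2, Ifnar1, Adar and B2m, 10 RPKM or more. The receptor and transcription factor genes stood at 1.94 to 15.1 RPKM, while the antiviral effectors ran between 0.165 RPKM for Oas2 and 7.06 RPKM for Cmpk2. The 33 genes that passed the filter on low counts entered the tests, and Zbp1, with 2 to 28 counts per library, did not. Interferon genes themselves were at the edge of detection. The 11 ligand genes in the table summed to 0.109 to 0.254 CPM in CPA+RO, 0.0942 to 0.245 CPM in CPA+veh and 0.116 to 0.199 CPM in control+veh rats, and 6 of them, Ifna1, Ifna2, Ifna11, Ifna16l1, Ifnl1 and Ifnl3, had no count in any library.

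**Figure D1:**
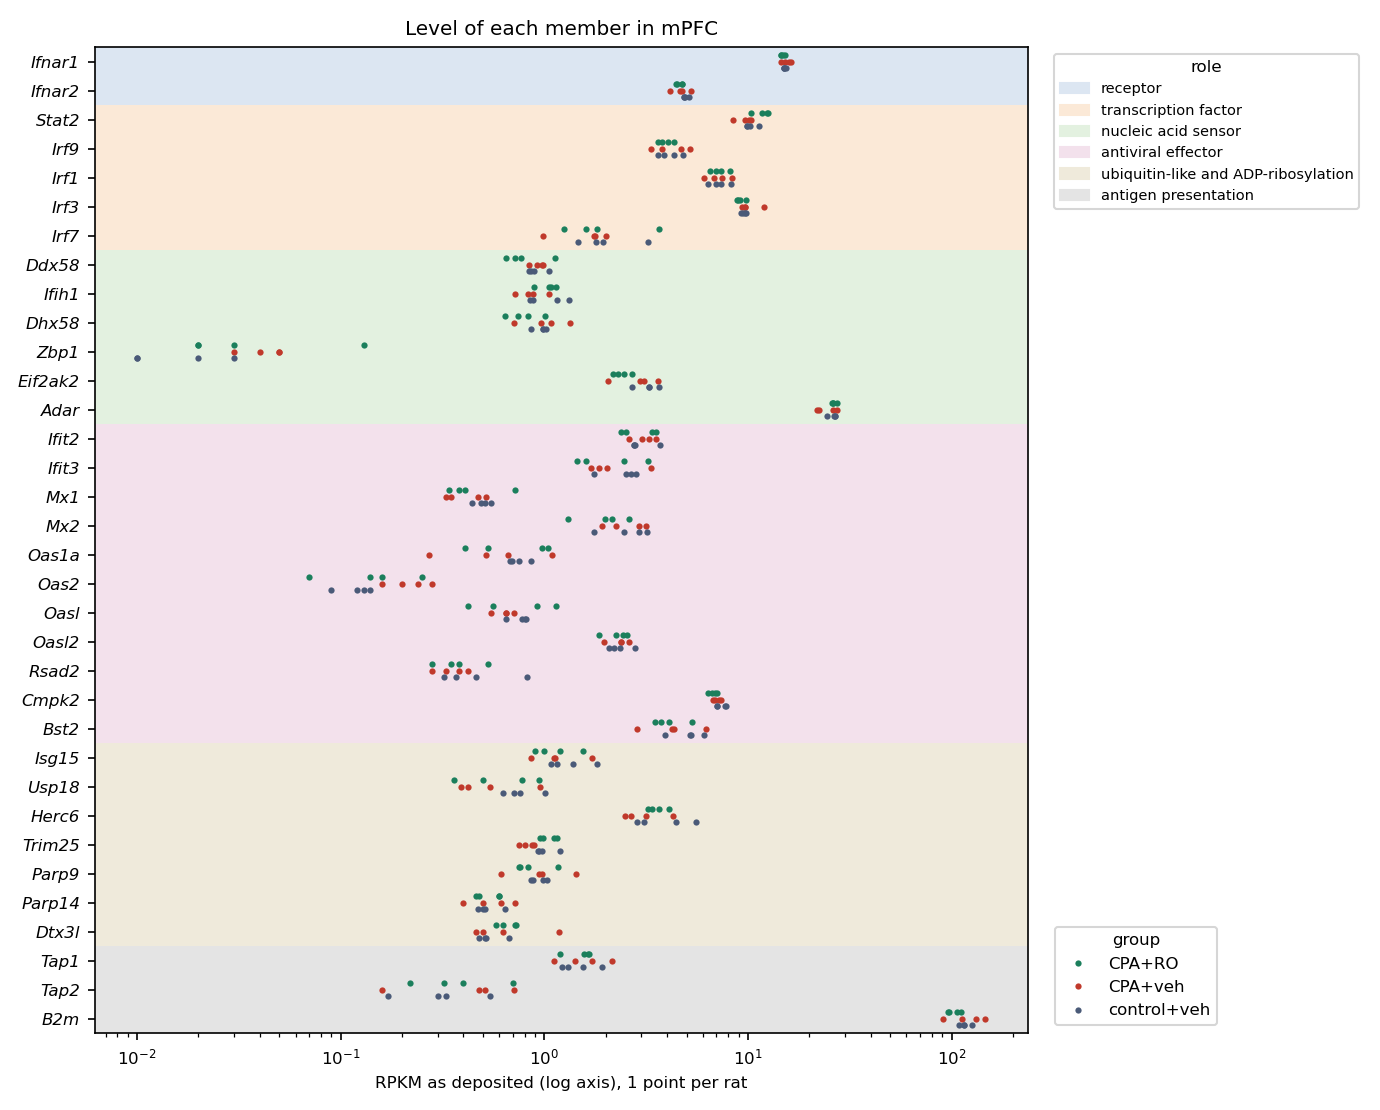
Level of the 34 genes in mPFC in RPKM as deposited, on a log axis, with 1 point per rat, coloured by group and shaded by role. B2m averaged 113 RPKM, Zbp1 0.0367 RPKM, and 15 of the 34 genes averaged under 1 RPKM.

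No member passed the test in any of the 3 comparisons of groups. In an edgeR quasi-likelihood fit across 19094 genes with Benjamini-Hochberg adjustment, 0 members passed an adjusted p of 0.05 for CPA+veh against control+veh, where 0.115% of all genes passed. In CPA+RO against control+veh 0 members passed, where 0.11% of all genes did, and for CPA+RO against CPA+veh 0 members passed, where 0% of all genes did. The smallest adjusted p among the members was 0.440 (Oas2), 0.714 (Stat2) and 0.876 (Stat2) in the same order of comparisons, by edgeR. DESeq2, limma-voom and limma on log2(RPKM + 0.1) also called 0 members in each comparison. With such low background shares, a count of 0 among 33 genes is near what all genes gave. Each pair of these comparisons shares 1 group of rats.

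At an unadjusted p under 0.05, edgeR, DESeq2 and limma-voom picked the same few genes. Oas2 was the 1 member of 33 in CPA+veh against control+veh, where 9.94% of all genes passed. Stat2 and Eif2ak2 were the 2 in CPA+RO against control+veh, where 5.75% of all genes passed. Stat2 and Trim25 were the 2 in CPA+RO against CPA+veh, where 4.41% of all genes passed. By limma on log2(RPKM + 0.1), Trim25 was added in the first comparison and Cmpk2 in the second.

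The fitted differences lay on both sides of 0. For CPA+veh against control+veh, 16 members were above 0 and 17 below (51.9% of all genes were above 0), with a median log2 fold change of -0.04 beside 0.0066 over all genes. Against the same controls, 14 members were above 0 and 19 below in CPA+RO (50% of all genes above), with a median of -0.03 beside 4.3e-05. Between CPA+RO and CPA+veh, 12 were above 0 and 21 below (48% of all genes above), with a median of -0.05 beside -0.0066. Without CPA+veh 1 and 2 this last median was 0.17, with 21 members above 0 and 12 below, and that of CPA+veh against control+veh was -0.17, with 7 above 0 and 26 below. In each of these comparisons 11 of the 33 members were then on the other side of 0, and 0 passed the adjusted test. Only CPA+veh 3 and 4 were then left in that group. The members' median deviation from the mean of the 12 rats was -0.24 in CPA+veh 3, the lowest of all rats, so these values rest largely on it.

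The intervals show how large a difference could have been missed. The 95% interval of the log2 fold change lay wholly within 1 unit of 0 for 28 members in CPA+veh against control+veh, 31 in CPA+RO against control+veh and 30 in CPA+RO against CPA+veh, where 83%, 83.6% and 83.7% of all genes did. It lay within 0.5 units for 16, 16 and 13 members in the same order, where 62.1%, 64.3% and 63.3% of all genes did. Tap2 had the widest interval in each comparison, from -0.42 to 1.45 in CPA+veh against control+veh, from -0.61 to 1.27 in CPA+RO against control+veh and from -1.11 to 0.74 in CPA+RO against CPA+veh.

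**Figure D2:**
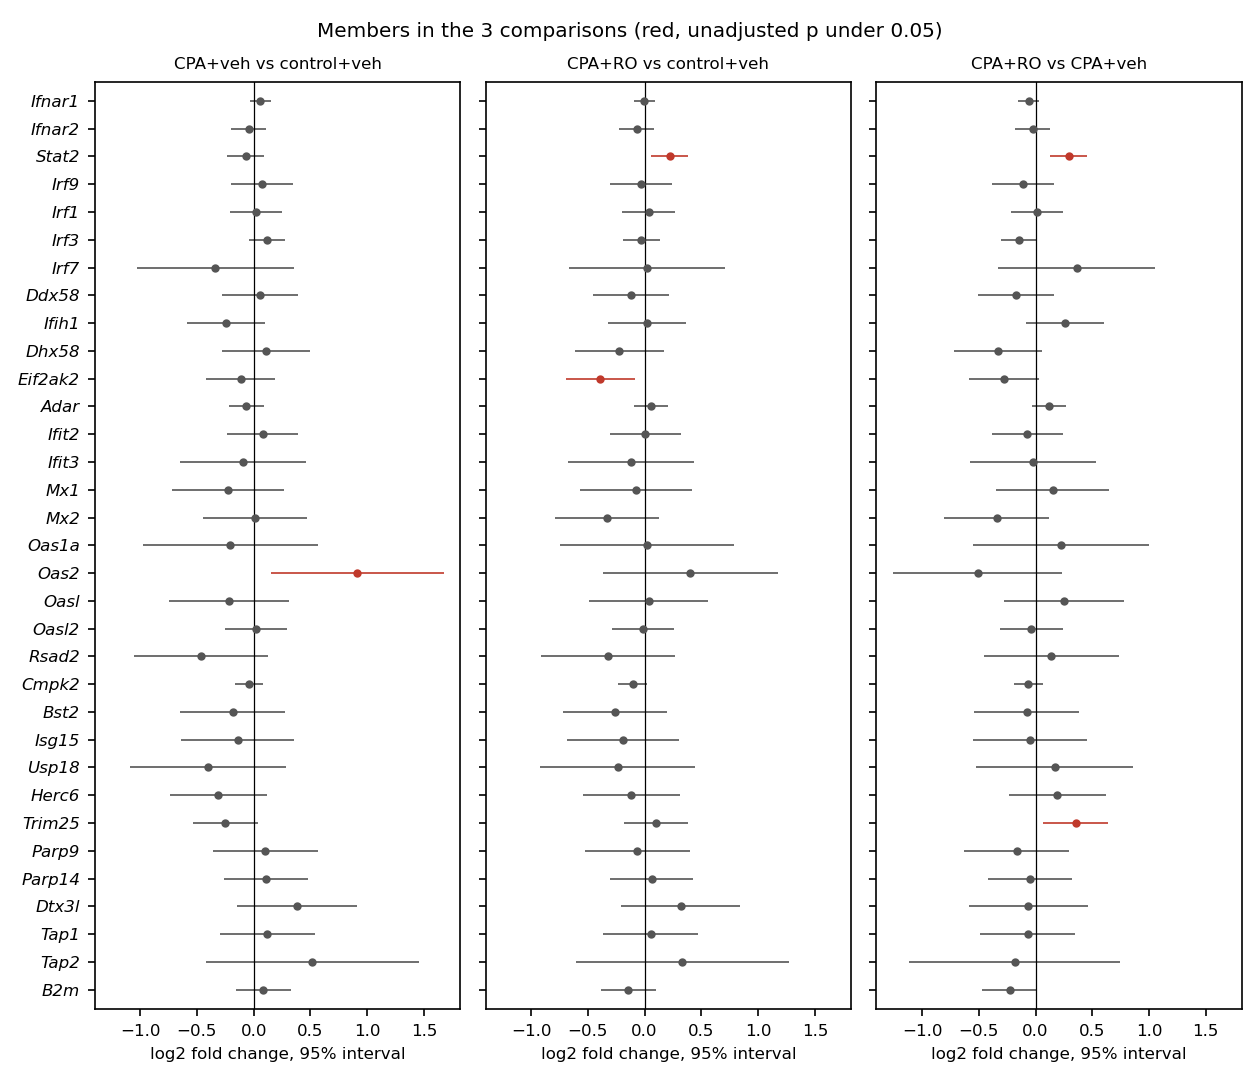
Log2 fold change of the 33 members tested (rows, ordered by role) in the 3 comparisons, with 95% intervals from edgeR, and red where the unadjusted p was under 0.05. Oas2 is red in CPA+veh against control+veh, Stat2 and Eif2ak2 in CPA+RO against control+veh, and Stat2 and Trim25 in CPA+RO against CPA+veh, and none of these passed the adjusted threshold.

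The 2 receptor genes varied little between rats. Ifnar1, a subunit of the receptor for type I interferon, was at 101, 101, 103 and 105 CPM in CPA+RO rats, 102, 111, 106 and 109 CPM in CPA+veh rats and 100, 105, 102 and 103 CPM in control+veh rats. All 12 rats lay between 100 and 111 CPM and the groups overlapped, and the pooled SD within groups, 0.037 on the log2 scale, was the smallest of the 33 members. The log2 fold change of Ifnar1 was 0.06 (95% interval -0.04 to 0.15) in CPA+veh and -0.0015 (-0.10 to 0.09) in CPA+RO, each against control+veh. Ifnar2, the partner subunit, lay between 13.8 and 14.7 CPM in CPA+RO, between 13 and 16 CPM in CPA+veh and between 14.6 and 15.7 CPM in control+veh rats.

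Among the transcription factors, Stat2 gave the smallest p of any member in both comparisons of CPA+RO. Stat2, a subunit of the factor that binds the ISRE, was at 43.4, 49.2, 52.5 and 51.7 CPM in CPA+RO rats, 35.7, 42.4, 40.8 and 41.8 CPM in CPA+veh rats and 41.3, 40.6, 46.5 and 40.5 CPM in control+veh rats. Every CPA+RO rat lay above every CPA+veh rat, and CPA+RO 1 lay below control+veh 3, so that CPA+RO and control+veh overlapped in that pair. The log2 fold change of CPA+RO against CPA+veh was 0.29 ± 0.076 (SE), with an unadjusted p of 0.00178 and an adjusted p of 0.876 by edgeR. Against control+veh it was 0.22 ± 0.076 (SE; adjusted p = 0.714, edgeR), and CPA+veh against control+veh gave -0.07 ± 0.076 (SE), or -0.03 without CPA+veh 1 and 2. By an exact permutation test of mean log2 CPM (two-sided, 35 distinct splits, smallest possible p 0.0286), p was 0.0286 for CPA+RO against CPA+veh and 0.0571 for CPA+RO against control+veh. Groups of 4 rats that do not overlap always give 0.0286, so the first p only restates that these groups were apart.

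The other factors had no p under 0.05 in any comparison. Irf9, its DNA-binding partner, ran between 11.5 and 13.6 CPM in CPA+RO, between 10.5 and 16.2 CPM in CPA+veh and between 11.2 and 14.6 CPM in control+veh rats, with a log2 fold change of -0.11 ± 0.13 (SE) for CPA+RO against CPA+veh, or 0.14 without CPA+veh 1 and 2. Irf3, a latent factor that the nucleic acid sensors activate, had its highest value in CPA+veh 2 (24.6 CPM) and 18.5 to 20.5 CPM in the other 11 rats. Irf1, which type II interferon induces, ran between 12.7 and 17.5 CPM over the 12 rats.

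Irf7, an interferon-induced factor that amplifies the response, varied widely between rats. It was at 3.35, 2.61, 3.78 and 7.60 CPM in CPA+RO rats, 3.69, 4.11, 2.05 and 3.65 CPM in CPA+veh rats and 6.48, 2.98, 3.67 and 3.96 CPM in control+veh rats. CPA+RO 4 and control+veh 1 were high and CPA+veh 3 was low, while the 3 groups overlapped. Irf7 is described here because of this spread, which was seen in the data. Its log2 fold change was 0.36 (95% interval -0.33 to 1.05) for CPA+RO against CPA+veh and -0.34 (-1.03 to 0.35) for CPA+veh against control+veh, and without CPA+veh 1 and 2 these values were 0.60 and -0.58.

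The nucleic acid sensors gave no difference past the threshold. Eif2ak2 encodes PKR, a kinase that double-stranded RNA activates and that stops translation, and carried the ISRE letters shown above next to its start. It was at 11.2, 9.88, 12.2 and 10.3 CPM in CPA+RO rats, 14.2, 16, 9.43 and 13.2 CPM in CPA+veh rats and 14.2, 16.4, 14.6 and 12 CPM in control+veh rats. Of the CPA+RO rats only number 3 lay above the lowest control+veh rat, and the CPA+veh rats overlapped both groups. The log2 fold change of CPA+RO was -0.39 ± 0.14 (SE) against control+veh, with an adjusted p of 0.789 by edgeR and an exact permutation p of 0.0571, and -0.28 ± 0.14 (SE) against CPA+veh, with an adjusted p of 0.876 and an exact permutation p of 0.229. Without CPA+veh 1 and 2 the difference from CPA+veh was -0.06, and without CPA+veh 2 alone -0.17.

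Adar, the editor of double-stranded RNA that keeps cellular RNA from being sensed, was listed with the sensors. Of that class Adar was the most abundant gene, with a mean of 25.7 RPKM. It was at 248, 249, 258 and 244 CPM in CPA+RO rats, 214, 202, 248 and 255 CPM in CPA+veh rats and 222, 245, 247 and 247 CPM in control+veh rats. The low values were those of CPA+veh 1 and 2 and of control+veh 1, and the groups overlapped. Adar gave a log2 fold change of 0.12 ± 0.071 (SE) for CPA+RO against CPA+veh, and -0.01 without CPA+veh 1 and 2.

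The RNA sensors proper stood near 1 RPKM. Ddx58 (RIG-I), which binds viral RNA ends, was highest in CPA+RO 4 at 4.99 CPM and ran between 2.86 and 4.48 CPM in the other rats. Ifih1 (MDA5), which binds long double-stranded RNA, ran between 3.52 and 4.48 CPM in CPA+RO, between 2.85 and 4.21 CPM in CPA+veh and between 3.28 and 4.99 CPM in control+veh rats. Dhx58 (LGP2), a regulator of both, ran between 1.91 and 2.98 CPM in CPA+RO, between 2.11 and 3.89 CPM in CPA+veh and between 2.52 and 2.92 CPM in control+veh rats. All 3 overlapped between the groups. Zbp1, a sensor of Z-form nucleic acid, had 28 counts in CPA+RO 4 and 10 or fewer in each of the other 11 rats.

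The antiviral effectors were mostly scarce, and Oas2 was the member with the smallest p in CPA+veh against control+veh. Oas2, a synthetase whose product activates RNase L, was at 0.575, 0.328, 0.357 and 0.153 CPM in CPA+RO rats, 0.377, 0.533, 0.643 and 0.449 CPM in CPA+veh rats and 0.199, 0.283, 0.260 and 0.319 CPM in control+veh rats. All 4 CPA+veh rats lay above all 4 control+veh rats, and the CPA+RO rats spanned both. CPA+veh against control+veh gave a log2 fold change of 0.91 ± 0.36 (SE), with an adjusted p of 0.440 by edgeR. The exact permutation p was 0.0286, the value that groups without overlap always give. With 316 counts over all 12 libraries, Oas2 was among the least covered members.

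Rsad2 (viperin), an enzyme that blocks viral RNA synthesis, was at 1.04, 1.28, 1.37 and 1.91 CPM in CPA+RO rats, 1.54, 1.33, 1.01 and 1.21 CPM in CPA+veh rats and 2.89, 1.34, 1.65 and 1.13 CPM in control+veh rats. Control+veh 1 was the highest of the 12 and the groups overlapped. CPA+veh against control+veh gave a log2 fold change of -0.46 ± 0.28 (SE; adjusted p = 0.583, edgeR; exact permutation p = 0.286), and without control+veh 1 it was -0.12.

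Cmpk2, a mitochondrial nucleotide kinase whose gene neighbours Rsad2 in the RefSeq annotation, had the highest mean RPKM of the effectors and little spread. It was at 26.9, 26.4, 24.3 and 25.6 CPM in CPA+RO rats, 27.9, 27.7, 26 and 26.2 CPM in CPA+veh rats and 28.8, 26.8, 28.8 and 26.5 CPM in control+veh rats. Only CPA+RO 1 lay above the lowest control+veh rat. Set against control+veh, CPA+RO had a log2 fold change of -0.10 ± 0.059 (SE; adjusted p = 0.880, edgeR; exact permutation p = 0.114).

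Mx2, a dynamin-like GTPase, was at 8.84, 13.5, 14.5 and 17.6 CPM in CPA+RO rats, 21.5, 19.3, 13.1 and 15.1 CPM in CPA+veh rats and 21, 11.8, 19.3 and 16.3 CPM in control+veh rats. CPA+RO 1 was the lowest rat and the groups overlapped. Set against control+veh, CPA+RO had a log2 fold change of -0.33 ± 0.21 (SE; adjusted p = 0.881, edgeR; exact permutation p = 0.314), and it was -0.17 without CPA+RO 1 and -0.22 without control+veh 1.

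The other effectors overlapped between groups in all 3 comparisons, with intervals that held 0. Ifit3, whose product binds viral RNA with its relatives, ran between 2.99 and 6.62 CPM in CPA+RO, between 3.52 and 6.79 CPM in CPA+veh and between 3.54 and 5.57 CPM in control+veh rats. Ifit2 lay between 8.15 and 12.5 CPM and Mx1 between 1.23 and 2.72 CPM over the 12 rats. The 2-5A synthetase Oas1a ran between 0.398 and 1.59 CPM, both in CPA+veh rats. The synthetase-like genes Oasl and Oasl2 lay between 1.06 and 2.88 CPM and between 4.72 and 6.78 CPM, and Bst2 (tetherin), which holds budding virus at the cell surface, between 2.19 and 4.77 CPM. Oas and Ifit genes resemble each other in sequence, and how the counting split reads between such genes is not given in the sources used here.

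Among the genes of ubiquitin-like modification and ADP-ribosylation, Trim25 had CPA+veh below both other groups. Trim25, a ubiquitin ligase that acts on RIG-I, was at 2.76, 2.46, 2.35 and 2.86 CPM in CPA+RO rats, 2.01, 2.16, 2.17 and 1.82 CPM in CPA+veh rats and 2.21, 2.91, 2.34 and 2.26 CPM in control+veh rats. The 4 CPA+veh rats lay below the 4 rats of each other group, narrowly so for CPA+veh 3 and control+veh 1. The log2 fold change was -0.25 ± 0.13 (SE; adjusted p = 0.536, edgeR) for CPA+veh against control+veh and 0.35 ± 0.13 (SE; adjusted p = 0.876, edgeR) for CPA+RO against CPA+veh. The exact permutation p was 0.0286 in both, the value that groups without overlap always give. Without control+veh 2, the highest rat, CPA+veh against control+veh gave -0.16.

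With Oas2 and Trim25, 2 of 33 members did not overlap between CPA+veh and control+veh, where 4.62% of all genes did not. Between CPA+RO and control+veh 0 of 33 were apart, where 5.57% of all genes were. Stat2 and Trim25, 2 of 33, were apart between CPA+RO and CPA+veh, where 1.95% of all genes were. These counts of 0 and 2 among 33 genes are small, and none of the genes passed the adjusted test.

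**Figure D3:**
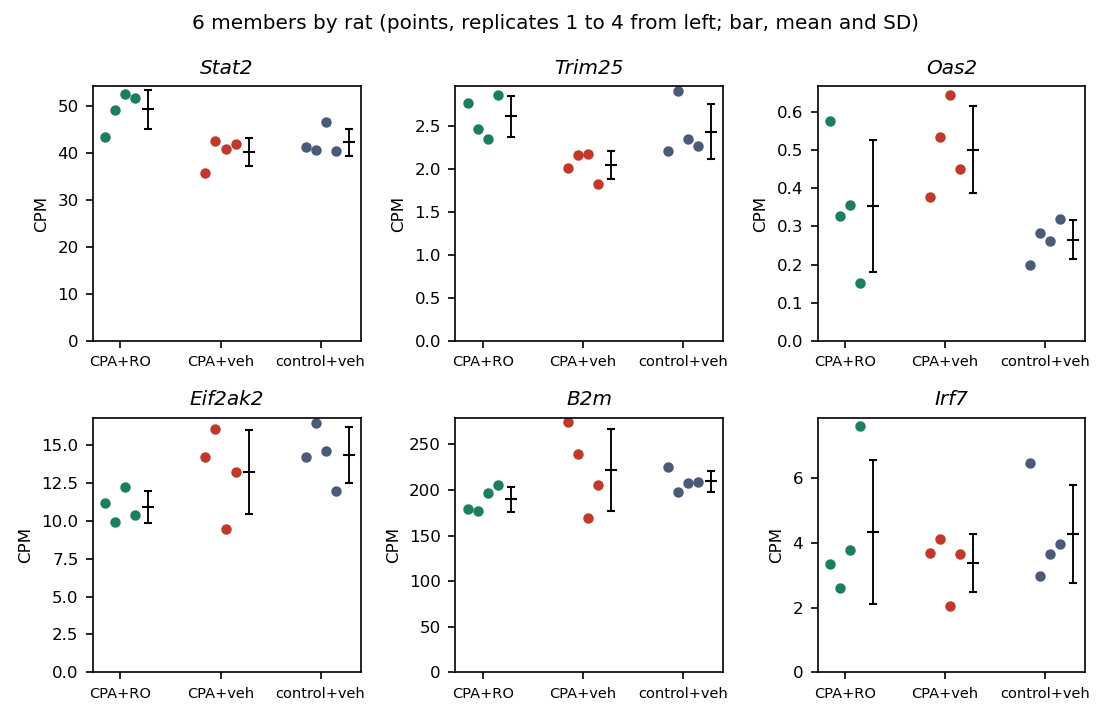
Stat2, Trim25, Oas2, Eif2ak2, B2m and Irf7 in CPM for each rat, with axes from 0 and the mean and SD of 4 rats beside the points. All 4 CPA+RO rats lie above all 4 CPA+veh rats for Stat2 and Trim25, all 4 CPA+veh rats lie above all 4 control+veh rats for Oas2, and for Irf7 CPA+RO 4 (7.60 CPM) and control+veh 1 (6.48 CPM) stand above the other rats.

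Herc6, a ligase that attaches ISG15 in rodents, had the highest mean RPKM of its class. It was at 15.1, 19.2, 15.8 and 17 CPM in CPA+RO rats, 11.8, 19.7, 12.6 and 14.5 CPM in CPA+veh rats and 12.9, 20.4, 14.2 and 25.5 CPM in control+veh rats. Control+veh 4 was the highest and the groups overlapped. CPA+veh against control+veh gave a log2 fold change of -0.31 ± 0.20 (SE; adjusted p = 0.609, edgeR; exact permutation p = 0.286), and it was -0.11 without control+veh 4 and -0.49 without CPA+veh 2.

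Isg15, the ubiquitin-like modifier itself, ran between 1.17 and 2.01 CPM in CPA+RO, between 1.13 and 2.19 CPM in CPA+veh and between 1.39 and 2.27 CPM in control+veh rats. Usp18, the protease that removes ISG15 and restrains the receptor, ran between 0.573 and 1.5 CPM in CPA+RO, between 0.617 and 1.49 CPM in CPA+veh and between 1 and 1.56 CPM in control+veh rats. Parp9, Dtx3l and Parp14, which neighbour each other in the RefSeq annotation and act in ADP-ribosylation, were highest in CPA+veh 1, at 6.77, 9.05 and 5.18 CPM, and at most 5.49, 5.51 and 4.38 CPM in the other 11 rats. Parp9 and Dtx3l overlap in that annotation, and without a stated use of strand in the counting their reads cannot be told apart.

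The 3 genes of antigen presentation were above 0 in CPA+veh against control+veh and below 0 in CPA+RO against CPA+veh, though none passed the test. Without CPA+veh 1 and 2 only Tap2 kept these signs, with 0.43 and -0.10, while Tap1 gave -0.21 and 0.26 and B2m -0.16 and 0.018. B2m, the light chain of MHC class I and the most abundant member, was at 179, 177, 197 and 205 CPM in CPA+RO rats, 274, 239, 170 and 205 CPM in CPA+veh rats and 225, 197, 207 and 208 CPM in control+veh rats. CPA+veh 1 and 2 were the highest rats and CPA+veh 3 the lowest of all 12. The log2 fold change of CPA+RO against CPA+veh was -0.23 ± 0.11 (SE; adjusted p = 0.876, edgeR; exact permutation p = 0.314), and without CPA+veh 1 and 2, the rats with the high microglial sums given above, it was 0.018. Without CPA+veh 1 alone it was -0.11. For CPA+veh against control+veh the value was 0.08 ± 0.11 (SE), or -0.16 without CPA+veh 1 and 2.

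Tap1 and Tap2 form the transporter that brings peptides to MHC class I. Tap1 ran between 3.22 and 4.47 CPM in CPA+RO, between 3.03 and 5.83 CPM in CPA+veh and between 3.21 and 5.02 CPM in control+veh rats. Tap2 was the most variable member, at 0.776, 1.71, 0.967 and 0.522 CPM in CPA+RO rats, 1.18, 1.21, 0.398 and 1.71 CPM in CPA+veh rats and 1.26, 0.412, 0.703 and 0.784 CPM in control+veh rats. High and low rats of Tap2 occurred in all 3 groups.

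The spread between rats of a group was wider for these genes than for the table at large. The median pooled within-group SD on the log2 CPM scale was 0.268 over the 33 members and 0.171 over all 19094 genes. The members were also less abundant, with a median of 4.33 CPM against 11.0 CPM, and the part of abundance in the spread was not tested. The smallest SDs belonged to Ifnar1 (0.037), Cmpk2 (0.061) and Ifnar2 (0.081), and the largest to Tap2 (0.743), Oas1a (0.595), Irf7 (0.534) and Usp18 (0.50).

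Much of this spread fell on the same rats. Control+veh 1 was the highest of its group in 21 of 33 members (63.6%), against 27% of all genes, and CPA+RO 4 in 17 (51.5%), against 24.3%. In CPA+veh, rats 2 and 1 were highest in 15 (45.5%) and 13 (39.4%) members, against 30.2% and 23.2% of all genes. CPA+veh 3 was the lowest of its group in 16 members (48.5%), against 21.6% of all genes, and CPA+RO 1 and 2 were lowest in 13 each (39.4%), against 24.4% and 26.6%. Thus each group held a rat with many high values, and the members with large values in one rat often shared that rat. Over all 12 rats, CPA+veh 3 was lowest in 12 members, and CPA+veh 2, CPA+veh 1 and control+veh 1 were highest in 8, 7 and 6. These last 3 rats also differed from the others in a trend with gene length over all genes tested. The Spearman correlation of a gene's deviation from the mean of the 12 rats with its length was -0.40, -0.20 and -0.21 in them. In every other rat it lay between 0.0015 (CPA+RO 1) and 0.21 (CPA+veh 4), with 0.07 in CPA+RO 4. The part of this trend in which rats were high or low was not tested.

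**Figure D4:**
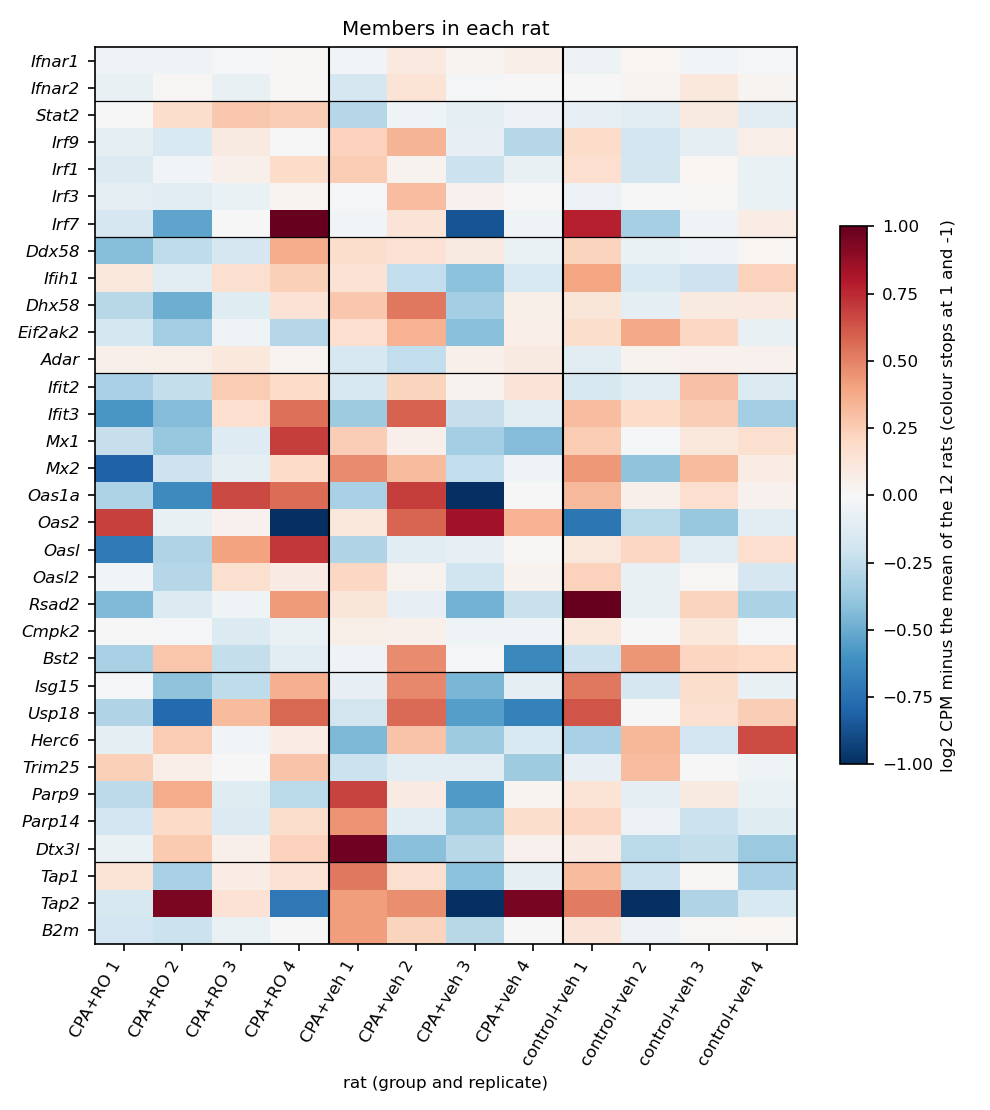
Log2 CPM of the 33 members tested (rows, by role) in each rat (columns, by group) minus the mean of the 12 rats, with colours that stop at 1 and -1. CPA+RO 4, CPA+veh 2 and control+veh 1 are mostly red in Irf7, Isg15, Usp18 and Oas1a, and CPA+veh 3 is mostly blue.

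The rats differed in which genes were high. In control+veh 1 the median deviation from the mean of the 12 rats was 0.31 log2 units for antigen presentation, 0.23 for the antiviral effectors and -0.02 for the receptor genes. In CPA+veh 1 it was 0.42 for antigen presentation and -0.08 for ubiquitin-like modification and ADP-ribosylation, and in CPA+RO 4 -0.00091 for antigen presentation and 0.23 for ubiquitin-like modification and ADP-ribosylation. In CPA+veh 3 it was -0.41 for antigen presentation, -0.38 for ubiquitin-like modification and ADP-ribosylation and 0.0084 for the receptor genes. Over all members the median deviation ran between -0.24 in CPA+veh 3 and 0.17 in CPA+RO 4, while over all genes it lay between 0.0011 and 0.013 in the 12 rats.

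**Figure D5:**
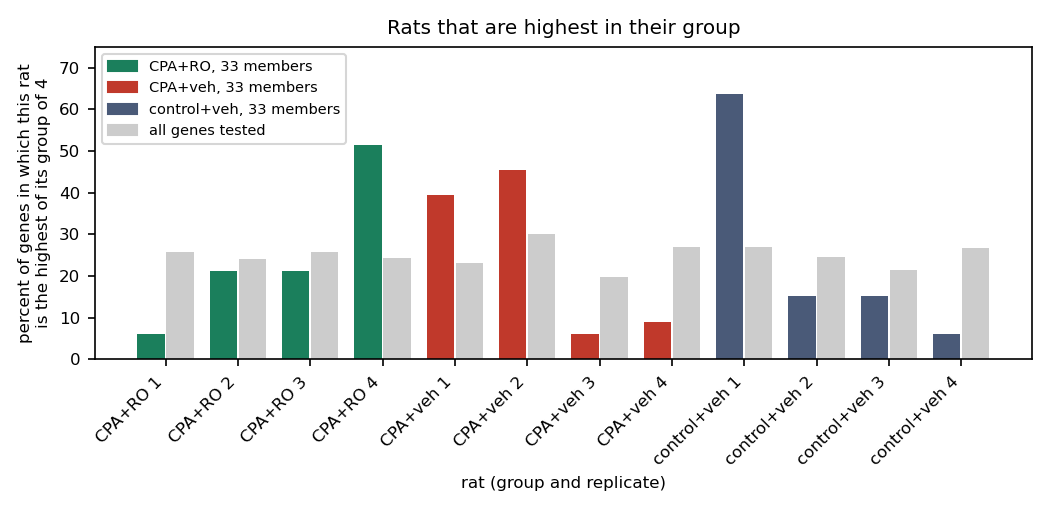
Percent of genes in which a rat was the highest of its group of 4, for the 33 members (coloured bars, by group) and for all 19094 genes tested (grey bars). Control+veh 1 reaches 63.6% and CPA+RO 4 51.5% of the members, while the grey bars stay between 19.7% and 30.2%.

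Among genes with a promoter window, those with the ISRE letters varied more between rats than those without. The 13 with a match had a median within-group SD of 0.344 (0.178 to 0.743), and the 12 without a match 0.154 (0.037 to 0.388). Their median levels were 3.99 and 14.7 CPM, and the part of abundance in this difference was not tested. Adar, Ddx58, Dhx58, Ifit2, Isg15, Mx2, Oas2 and Usp18 were tested but had no window, and are in neither set. Control+veh 1 was the highest of its group in 11 of the 13 with a match and in 5 of the 12 without, and CPA+veh 3 the lowest of its group in 10 of the 13 and in 3 of the 12. The log2 fold change was above 0 in 6 of the 13 and 5 of the 12 genes for CPA+veh against control+veh, in 7 and 4 for CPA+RO against control+veh, and in 4 and 6 for CPA+RO against CPA+veh. These counts are a description, since genes of 1 rat share its library.

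Markers of other cells were compared with the same rats. The microglial sum of CPA+RO 4, at 375 CPM, and of control+veh 1, at 357 CPM, lay inside the range of their groups (349 to 407 CPM in CPA+RO and 349 to 411 CPM in control+veh). In CPA+RO 4 the endothelial sum was 284 CPM, against 220 to 235 CPM in the other CPA+RO rats, the sum of 7 genes of pericytes and smooth muscle 99.5 CPM, against 83.9 to 86.4 CPM, and that of 6 blood genes 155 CPM, against 85.7 to 110 CPM. In control+veh 1 the endothelial sum, 217 CPM, and the pericyte and smooth muscle sum, 88.5 CPM, were the lowest of the group, and the blood sum was 117 CPM. CPA+veh 3, often the lowest rat for the members, had the highest blood sum of all rats, 159 CPM. Its endothelial sum was 248 CPM, against 163 to 272 CPM over the CPA+veh rats, and its pericyte and smooth muscle sum 86.5 CPM. The part of these sums in the values of the members was not tested. A T cell list of 10 genes summed to 3.90 to 5.53 CPM in CPA+RO, 3.90 to 5.31 CPM in CPA+veh and 4.86 to 5.63 CPM in control+veh rats. A B cell list of 5 genes summed to at most 0.482 CPM and a list of 6 genes of natural killer and cytotoxic cells to at most 0.255 CPM in any rat, so defining markers of lymphocytes of these kinds were near 0.

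Other genes of the pathway, listed apart from the 34, gave no call either. Of 62 further interferon-response genes tested, 0 passed the adjusted p of 0.05 in any comparison by edgeR. At an unadjusted p under 0.05 there were 3, 1 and 4 in CPA+veh against control+veh, CPA+RO against control+veh and CPA+RO against CPA+veh. Of all genes, 9.94%, 5.75% and 4.41% passed there, and the genes named below are only those of smallest p. Pnpt1, a mitochondrial RNA exonuclease, was at 15.1 to 17.7 CPM in CPA+RO, 15.8 to 17.2 CPM in CPA+veh and 17.6 to 19.0 CPM in control+veh rats, with a log2 fold change of -0.18 ± 0.067 (SE; adjusted p = 0.424, edgeR) for CPA+veh and of -0.15 ± 0.067 (SE; adjusted p = 0.859, edgeR) for CPA+RO, each against control+veh. Cxcl10 and Ly6e, a chemokine and a membrane protein that interferon induces, gave 0.38 ± 0.17 and 0.15 ± 0.063 (SE) for CPA+veh against control+veh, and Ly6e 0.08 without CPA+veh 1 and 2. Ube2l6, the enzyme that passes ISG15 to its ligases, gave -0.47 ± 0.22 (SE) for CPA+RO against control+veh. Pml, Gbp5 and Gbp4 gave 0.25 ± 0.10, 0.44 ± 0.19 and -1.08 ± 0.47 (SE) for CPA+RO against CPA+veh.

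Of 18 genes for sensing of nucleic acid and its adaptors, 0 passed in any comparison by edgeR. At an unadjusted p under 0.05 there were 1, 1 and 2 in the same order, beside 9.94%, 5.75% and 4.41% of all genes. Traf3, an adaptor downstream of the sensors, was at 111, 115, 108 and 114 CPM in CPA+RO rats, 118, 105, 119 and 107 CPM in CPA+veh rats and 80.7, 95.9, 98.7 and 112 CPM in control+veh rats. Its log2 fold change was 0.21 ± 0.082 (SE; adjusted p = 0.432, edgeR) for CPA+veh and 0.21 ± 0.082 (SE; adjusted p = 0.791, edgeR) for CPA+RO, each against control+veh, and control+veh 4 overlapped both groups. Tlr3 and Tlr7, endosomal RNA receptors, gave -0.61 ± 0.23 and -0.38 ± 0.17 (SE) for CPA+RO against CPA+veh, and Tlr7 -0.13 without CPA+veh 1 and 2. Trex1 gave 0.21 ± 0.12 (SE) for CPA+veh against control+veh (0.05 without the same 2 rats), Ticam1 0.42 ± 0.25 (SE) for CPA+RO against control+veh, and Mb21d1, which encodes cGAS, -0.48 ± 0.37 (SE) for CPA+RO against CPA+veh.

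Of 37 further genes of antigen presentation, 0 passed in any comparison by edgeR. At an unadjusted p under 0.05 there were 2, 0 and 2 in the same order, beside 9.94%, 5.75% and 4.41% of all genes. Canx, a chaperone of newly made MHC class I, was at 687 to 778 CPM in CPA+RO, 650 to 732 CPM in CPA+veh and 742 to 820 CPM in control+veh rats, with a log2 fold change of -0.14 ± 0.057 (SE; adjusted p = 0.454, edgeR) for CPA+veh against control+veh. RT1-Da, a chain of MHC class II, was lower in all 4 CPA+RO rats (1.66 to 3.72 CPM) than in all 4 control+veh rats (4.04 to 5.45 CPM), with -0.68 ± 0.37 (SE; adjusted p = 0.879, edgeR). The CPA+veh rats spanned 2.14 to 9.16 CPM. Of all genes, 5.57% did not overlap between CPA+RO and control+veh. Ctss, a protease that trims the class II invariant chain, gave -0.23 ± 0.090 (SE) and RT1-CE5 -0.26 ± 0.14 (SE) for CPA+RO against CPA+veh. Ctss was at 200 and 222 CPM in CPA+veh 1 and 2 and at 152 to 184 CPM in the other 10 rats, and without these 2 rats Ctss gave -0.04 and RT1-CE5 -0.02. RT1-T24-4 and RT1-M3-1 gave 0.71 ± 0.31 and 0.24 ± 0.14 (SE) for CPA+veh against control+veh, or 0.43 and 0.11 without the same 2 rats. RT1-T24-4 gave 0.47 ± 0.31 (SE) and Pdia3, a partner of calnexin in peptide loading, -0.09 ± 0.050 (SE) for CPA+RO against control+veh. Genes of the RT1 region, the MHC of the rat, resemble each other closely, and their counts are uncertain where reads could be split between them.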

How the data were processed

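Counts per gene were deposited by the authors as whole numbers without normalization, and RPKM values (scaled to gene length and library total, rounded) were deposited beside them. The submitters' processing notes name bcl2fastq, FastQC, STAR, SAMtools and the builds rn6 and Rnor_6.0. The counter, its use of strand, the annotation and the tool versions were not found in the sources used here. Libraries were stranded and poly(A)-selected, from 12 rats in 3 groups assigned by the labels, with 64993543 to 79006972 counts each.

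Counts were fitted with edgeR 4.0.16 in R 4.3.3 (TMM factors, filterByExpr, quasi-likelihood test, group as the only term, all 12 libraries in 1 fit), and p-values were adjusted by the Benjamini-Hochberg method over the 19094 genes that passed, with a threshold of 0.05. CPM used the TMM-scaled library sizes, and log2 CPM a prior count of 2. The fit was tested on simulated data. Single genes were also compared by an exact two-sided permutation test of 4 rats against 4. The edgeR p-values set the difference of groups against the spread between rats. Alternatives were DESeq2 1.42.0, limma 3.58.1 (voom, and trend on log2(RPKM + 0.1) or log2(RPKM + 1)), other size factors and filters, a gene length offset, a replicate block, halved counts and left-out libraries. Promoter windows are RefSeq sequences of GRCr8, matched by gene ID, and no coordinates of rn6 were used.

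The members and gene lists were chosen with earlier results of these data known. Members with full values per rat were, for each comparison, those called or else the 4 of smallest p, those whose groups did not overlap, and the one of highest mean RPKM in each role. Of the other lists of the pathway the 3 of smallest p per comparison were named, and 1 such gene is not reported here. Irf7, Tap2 and the genes given by range stand outside this rule. Marker lists of cell types were used as sums.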

Additional observations from a re-analysis of the deposited data

Results flagged for a closer look

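In each group of 4 rats, the gap of the highest or lowest rat to its nearest neighbour was set against the range of the group (Dixon's ratio, at its 95% critical value), and 6 of 102 sets of gene and group went past it, where chance flags about 1 in 20. CPA+RO 4 stood apart for Zbp1, at 0.356 CPM (28 counts) against 0.0546 to 0.0892 CPM in the other CPA+RO rats. CPA+veh 2 stood apart for Irf3, at 24.6 CPM against 19.7 to 20.5 CPM in the other CPA+veh rats. Control+veh 1 was low for Adar, at 222 CPM against 245 to 247 CPM in the other control+veh rats, and control+veh 2 was low for Dhx58, at 2.52 CPM against 2.86 to 2.92 CPM. Control+veh 3 was high for Stat2, at 46.5 CPM against 40.5 to 41.3 CPM, and for Ifit2, at 12.5 CPM against 9.13 to 9.47 CPM. The Stat2 value of control+veh 3 is the one that overlapped the CPA+RO rats.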

How the results depend on the processing

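The count of members called was 0 in all 3 comparisons under each of 28 alternatives. For CPA+veh against control+veh the number of all genes called, 22, was 115 by DESeq2, 12 when genes had to reach 1 CPM in 4 libraries, 14 without CPA+veh 1 and 2, and 18 to 26 with each library left out in turn. For CPA+RO against control+veh the number called, 21, was 82 by DESeq2, 48 with no filter, 13 with that minimum, 36 at an adjusted p under 0.1, 32 with only the 2 groups in the fit, and 15 to 27 with each library left out. For CPA+RO against CPA+veh it was 0, and 1 with only the 2 groups in the fit. The cause of these shifts was not tested. The members' median log2 fold change for CPA+RO against CPA+veh, -0.05, was 0.17 without CPA+veh 1 and 2 and ran between -0.08 and 0.03 with single libraries left out, and that of B2m in the same comparison, -0.23, was 0.018 without CPA+veh 1 and 2 (adjusted p = 1, edgeR) and between -0.34 and -0.11 with single libraries left out. With single libraries left out, the other 2 medians ran between -0.06 and 0.04 for CPA+veh and between -0.08 and 0.0053 for CPA+RO, each against control+veh. Stat2 for CPA+RO against CPA+veh stayed between 0.24 and 0.35 under its 27 alternatives (adjusted p = 0.459 to 1). Oas2 for CPA+veh against control+veh ran between 0.12, on the log2(RPKM + 1) scale that shrinks low genes, and 1.03 (adjusted p = 0.250 to 0.731), and that scale also gave -0.13 for Trim25 and for Rsad2 in that comparison and 0.17 for Trim25 in CPA+RO against CPA+veh.

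With the replicate number as a block, 17, 21 and 0 genes were called in CPA+veh against control+veh, CPA+RO against control+veh and CPA+RO against CPA+veh, and 0 members in each. Same-numbered rats did not deviate together (r between -0.11 and 0.098 over 12 pairs), so the numbers were not read as a pairing. Depth limits the scarcest members: Zbp1 had 90 counts and Oas2 316 over 12 libraries.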

Other observations

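MHC class II genes were not evenly spread over the rats; these genes were picked after their values were seen. Cd74, the invariant chain of MHC class II, was at 9.45, 6.63, 15.9 and 18.6 CPM in CPA+RO rats, 12.3, 44.6, 6.92 and 19.5 CPM in CPA+veh rats and 19.4, 13.5, 18.5 and 17.2 CPM in control+veh rats. The high rat was CPA+veh 2. In the same rat RT1-Ba, RT1-Bb, RT1-Da and RT1-Db1, which encode class II chains, were at 7.57, 8.25, 9.16 and 8.04 CPM, and at most 4.68, 4.57, 5.68 and 3.96 CPM in the other 11 rats.

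RT1-N2 and RT1-O1, genes of the MHC class I region that were also picked after their values were seen, were high in 3 rats, 1 of each group. RT1-N2 was at 8.14 CPM in CPA+RO 4, 9.22 CPM in CPA+veh 3 and 10.4 CPM in control+veh 2, and at most 0.173 CPM in the other 9 rats. RT1-O1 was at 1.35 CPM in CPA+RO 4, 1.35 CPM in CPA+veh 3 and 1.78 CPM in control+veh 2, and at most 0.123 CPM in the other 9 rats. CPA+RO 4 was among the rats with high values of many members and CPA+veh 3 among those with low values. The member Tap2 was lowest in the same 3 rats. It was at 0.522 CPM in CPA+RO 4, 0.398 CPM in CPA+veh 3 and 0.412 CPM in control+veh 2. In the other 9 rats Tap2 was at 0.703 to 1.71 CPM. Whether these patterns are linked was not tested.

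Some interferon-response genes outside the set also varied widely between rats. Ifit1 was at 0.906, 0.600, 0.178 and 1.23 CPM in CPA+RO rats, 0.0628, 0, 0.0612 and 0.505 CPM in CPA+veh rats and 0.695, 0.0257, 0.0260 and 0.610 CPM in control+veh rats. Its log2 fold change was 2.20 for CPA+RO against CPA+veh, or 1.35 without CPA+veh 1 and 2. Against control+veh it was 1.13 in CPA+RO and -1.07 in CPA+veh, the latter -0.22 without the same rats. The groups overlapped at these low counts, and Ifit1 was not called in any comparison. Oas3 was at 0.113 CPM in control+veh 1 and at 0.992 to 2.47 CPM in the other 11 rats. Psmb8 and Psmb9, subunits of the immunoproteasome whose genes lie beside Tap1 and Tap2, were at 1.83 and 2.26 CPM in CPA+RO 4, against at most 0.818 and 1.13 CPM in the other CPA+RO rats. As a group, CPA+RO was still not above control+veh, with log2 fold changes of -0.25 for Psmb8 and -0.18 for Psmb9.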
